A study of Mus musculus with 6 samples.

Results

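The genes described here encode the integrins and the proteins that tie them to actin, in primary mouse hepatic stellate cells exposed to obeticholic acid (OCA). They were chosen by symbol: each gene named Itga or Itgb with a number, Itgav, and 17 focal adhesion genes (Tln1, Tln2, Vcl, Ptk2, Pxn, Ilk, Parva, Lims1, Lims2, Fermt2, Zyx, Tns1, Tns2, Tns3, Src, Bcar1 and Tgfb1i1). The rule found 38 genes among 24940, of which 13 were integrin alpha chains and 8 beta chains. No measured value entered the rule, and 36 of the 38 passed the filter on low counts. Itgb6 and Itgb7 did not, with 0 to 8 and 1.5 to 10.5 counts per library.

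Stellate cells are liver pericytes that store vitamin A, and upon activation they turn into myofibroblasts that lay down matrix. The labels give female C57BL/6JBomTac mice as the source, and treatment began 2 days after the cells were isolated. In 3 libraries the cells had 10 µM OCA, a modified bile acid and agonist of the receptor FXR, and in the other 3 the solvent dimethyl sulfoxide (DMSO) alone, with harvest after 6 hours. The libraries of each group are named A, B and C. The labels name no genotype beyond the strain and no age, and do not tie libraries to animals or isolations. All p-values therefore rest on the variation among libraries, part or all of which may be technical.

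An integrin is a pair of 1 alpha and 1 beta chain that spans the membrane, and the pair decides which matrix protein is bound. Talin and kindlin bind the beta tail and switch the integrin on, and the complex of ILK, PINCH and parvin, the kinases FAK and Src, and adaptors such as vinculin, zyxin and the tensins then assemble at the site and connect it to actin. In stellate cells integrins sense the stiffness of the matrix, and those that contain the alpha-v chain release active TGF-beta from its latent complex.

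Column totals ran from 12260882 to 16336240 counts, and 3 counts corresponded to 0.181 to 0.251 CPM, the counts scaled to a common library total. The 38 genes together took 1.08% to 1.17% of the counts of a library. Stellate cell markers were present in all libraries: 12 of 12 were tested, their summed level was 1970 to 2124 CPM in DMSO and 1721 to 2096 in OCA, and Pdgfrb and Reln were the highest by mean CPM over the 6 libraries. Of these markers Hhip (adjusted p = 0.00567) and Lhx2 (adjusted p = 0.0470) were higher in OCA, and Reln (adjusted p = 0.0198) and Rgs5 (adjusted p = 0.0326) lower. Summed markers of hepatocytes (Alb the highest, at 2.08 CPM in DMSO), macrophages (Cd68 and Csf1r) and endothelial cells (Tek) stayed between 2.68 and 11.8 CPM. Lymphocyte, neutrophil and mesothelial sums stayed at or under 0.393 CPM. The cholangiocyte sum was 8.36 to 9.54 CPM in DMSO and 11.3 to 14.9 in OCA. Of its markers Sox9 was higher (means of 2.52 and 7.69 CPM, adjusted p = 0.00322). Spp1 lay lower in every OCA library (5.75 and 4.18 CPM, not called). Krt19 was at 0.644 and 0.719 CPM, and Krt7 and Cldn4 were at 0 in all libraries. The portal fibroblast sum was 519 to 552 CPM in DMSO and 349 to 530 in OCA, with Thy1 and Mfap4 at 0. Most of it was Ntn1, at means of 401 and 353 CPM, which overlapped and was not called, and Fbln2, which was lower (126 and 67.0). Eln lay higher in every OCA library (3.19 and 4.95 CPM) and Cd34 lower (2.30 and 1.18), both not called. The part of these shifts in the results was not tested, and in bulk RNA fewer cells of a type and less RNA per cell cannot be told apart.

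Some libraries ranked high or low across these genes. DMSO B was the highest of its group for 20 of the 36 tested genes (55.6%, against 34.2% of all genes tested), and OCA B for 19 (52.8%, against 33.2%). DMSO C was the highest for 3 (8.33%, against 29.9%). For the 36 tested genes and the list genes named below, results that change when a library is left out are given with that value. The marker calls above were not checked in this way.

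Levels are first compared between genes, as CPM per kilobase of the counted transcript and as the mean over the 6 libraries. Itgb1, the beta chain shared by many integrins, stood at 172 CPM per kilobase, with a range of 154 to 201. Itgb5 followed at 74.3 and Itgb3 at 21.6, and the ranges of these chains did not overlap. The other 5 beta chains, Itgb8, Itgb2, Itgb4, Itgb7 and Itgb6, had means of 0.702 or less.

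Among the alpha chains Itgav was the most abundant, at 83.6 CPM per kilobase. Itga9, which pairs with beta1 and binds tenascin-C and osteopontin, came next at 59.8. Itga1, a collagen receptor chain, and Itga5, the fibronectin receptor chain, stood at 44.3 and 42.9, and their ranges overlapped. Itga3 stood at 8.04, and the remaining 8 alpha chains at 1.17 or less. Neighbours among those 8 overlapped in range.

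The focal adhesion genes lay closer together. Ilk was at 186 CPM per kilobase, Fermt2 at 179, Vcl at 166, Parva at 152, Tns3 at 147, Tns1 at 140, Tln1 at 129, Lims1 at 127 and Zyx at 112, and each range overlapped that of the next of these genes. Bcar1 stood alone at 86.2, followed by Tgfb1i1 at 57.6 and Ptk2 at 54.2. Tln2, Src, Lims2, Tns2 and Pxn lay between 34.6 and 39.0, with neighbouring ranges overlapping.

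**Figure D1:**
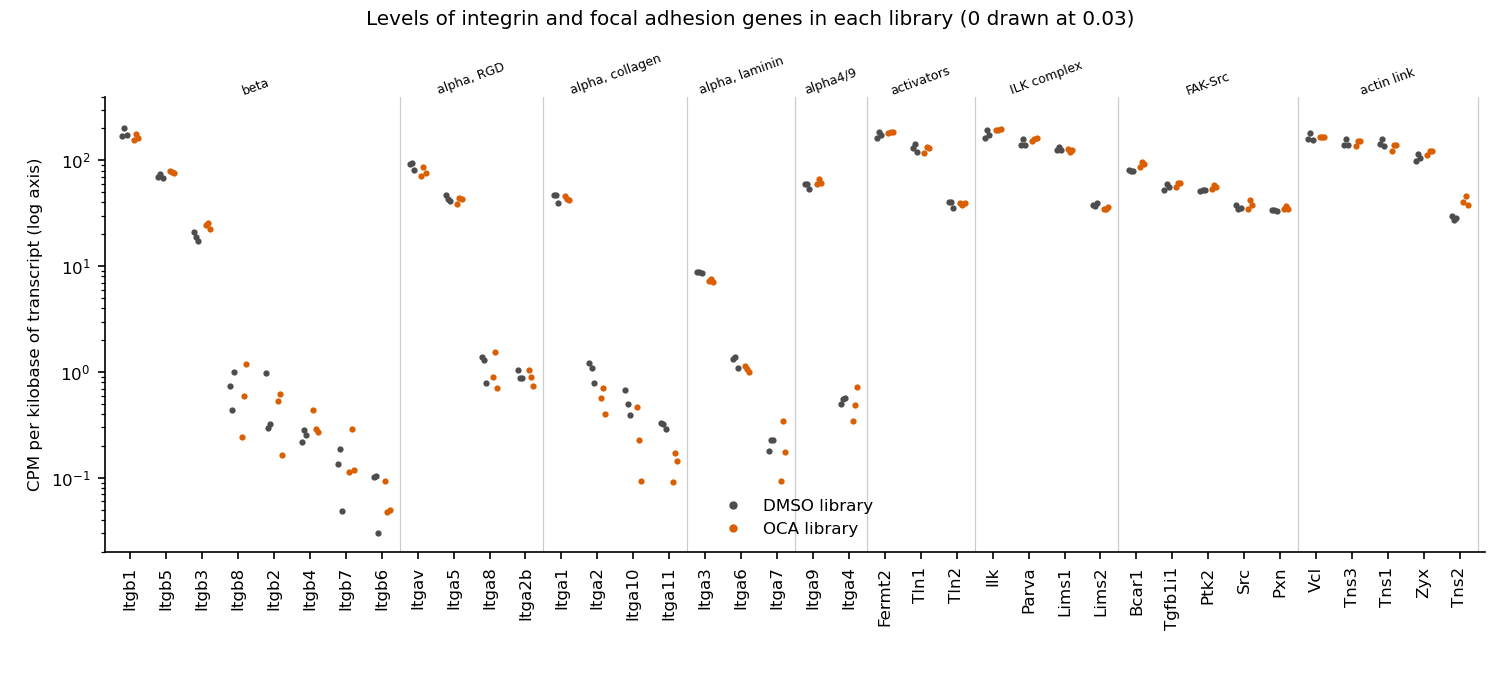
Level of each of the 38 genes in CPM per kilobase on a log axis, 1 point per library, grouped by role, with DMSO in grey and OCA in orange. All 17 focal adhesion genes lie above 20, while the integrin chains split into 7 at a mean above 20, Itga3 at 8.04, and the rest near 1 or below.

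Under OCA, 2 of the 36 tested genes rose and 0 fell at an adjusted p under 0.05 (edgeR's quasi-likelihood test, Benjamini-Hochberg over 12687 genes). The genes that rose were Tns2, 1.44-fold, and Itgb3, 1.27-fold. Across all genes tested, 2.18% were called higher and 3.03% lower, so 2 of 36 (5.56%) is a small count that is not read as particular to these genes. At an unadjusted p under 0.05 there were 4 genes above 0 and 5 below, against 2405 of the 12687 genes tested in both directions. DESeq2 called 3 higher and 0 lower, adding Bcar1, and limma-voom called the same 2 higher and 0 lower. The median log2 fold change was -0.03, against 0.00 over all genes tested, with 17 genes above 0 and 19 below.

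In 8 of the 36 every OCA library lay above every DMSO library (Tns2, Itgb3, Itga9, Itgb5, Bcar1, Ptk2, Pxn and Ilk), and in 4 below (Itga2, Itga11, Itga3 and Lims2). Over all genes tested these shares were 11.6% and 11.3%. The abundant genes were measured precisely. For 25 genes at a mean of at least 20 CPM the standard error of the log2 fold change was 0.064 to 0.088, and for 24 of them the 95% interval lay within a 1.5-fold change in either direction, Tns2 being the exception. For the 11 genes under 20 CPM the standard error was 0.21 to 0.56 and 0 intervals lay wholly within that range.

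**Figure D2:**
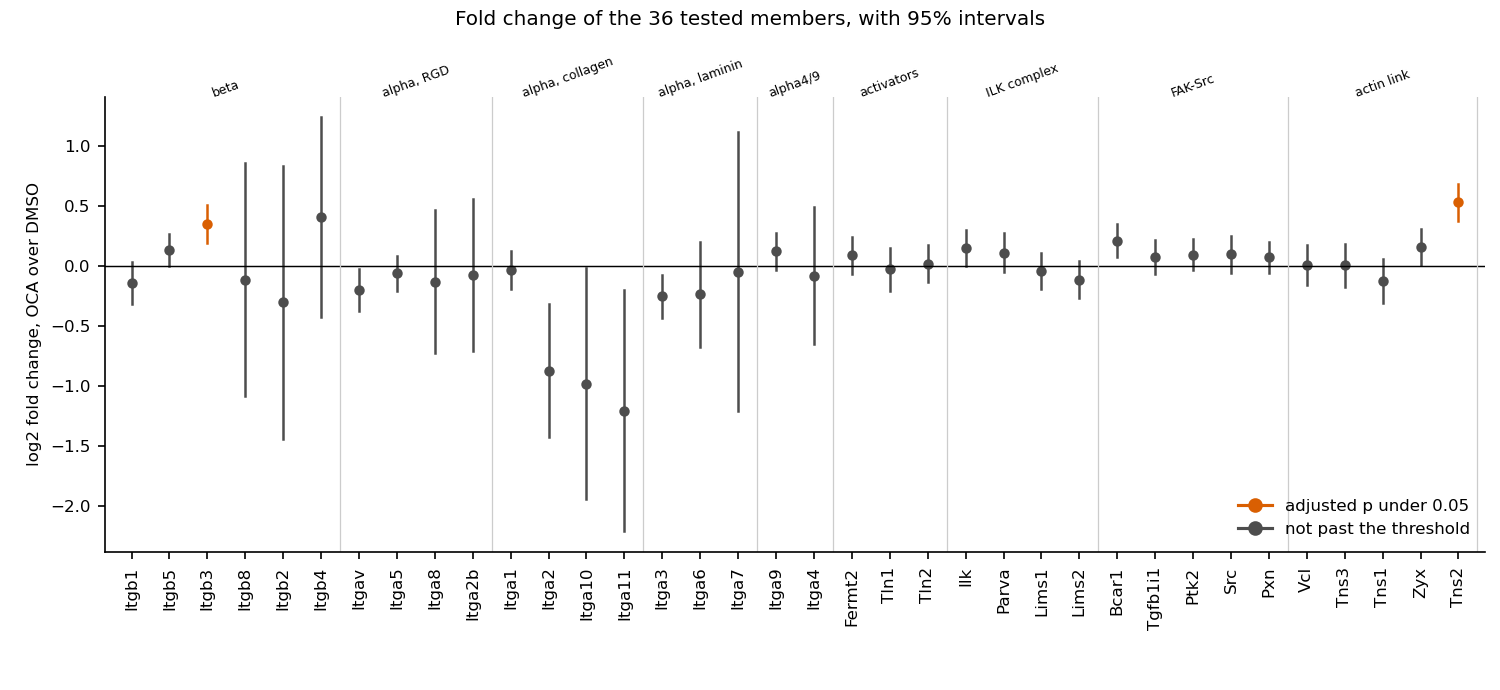
Log2 fold change of OCA over DMSO for the 36 tested genes, grouped by role, with bars for the 95% interval of the edgeR fit. Tns2 (0.53) and Itgb3 (0.35), in orange, passed the threshold. The alpha chains lie below 0 except Itga9 (9 to 12 of 13 below 0 over the alternatives), and the wide bars belong to genes under 20 CPM.

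Itgb3, at chr11:104608000-104670471 on the plus strand of mm10 and counted on transcript NM_016780, encodes the beta3 chain that pairs with alpha-v to bind vitronectin and other ligands with the sequence Arg-Gly-Asp (RGD). It stood at 121, 108 and 100.3 CPM in DMSO A, B and C and at 142, 147 and 129 CPM in OCA A, B and C. Every OCA library lay above every DMSO library, and the gap between the nearest, DMSO A and OCA C, was small. The means were 109.7 ± 10.5 and 139.6 ± 9.26 CPM (SD, n = 3), a difference of 0.35 on the log2 scale (SE 0.08, 95% interval 0.19 to 0.51, adjusted p = 0.0103). The call was lost without DMSO C (log2 fold change 0.29, adjusted p = 0.0821), without OCA A (0.33, adjusted p = 0.0531) and in a test against a fold change of 1.2 (adjusted p = 0.972). It was kept in the other 15 of 18 alternatives.

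The other abundant beta chains that pair with alpha-v did not pass the threshold. Itgb1 stood at 702, 837 and 729.7 CPM in the DMSO libraries and at 645, 736 and 672 in OCA, and the groups overlapped because OCA B exceeded DMSO A and DMSO C. Its log2 fold change was -0.14 (SE 0.08, adjusted p = 0.371). Itgb5, another vitronectin-binding chain, stood at 227, 243 and 224 CPM in DMSO and at 258, 253 and 250.4 in OCA, without overlap, and its log2 fold change of 0.13 (SE 0.06, adjusted p = 0.264) did not pass the threshold.

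Within a library, Itgb3 made up 8.10%, 6.36% and 6.65% of the CPM per kilobase of Itgb1, Itgb3, Itgb5, Itgb6 and Itgb8 in DMSO. In OCA it made up 9.56%, 9.12% and 8.58%. The mean share was 7.04% ± 0.93 in DMSO and 9.09% ± 0.49 in OCA (SD, n = 3), without overlap, and an exact two-sided permutation test gave p = 0.1, the smallest that 3 against 3 allows. Without Itgb1 in the sum the shares were 21.0% ± 1.71 and 23.6% ± 1.15, and overlapped (exact permutation p = 0.2). With the share of Tns2 given below these were 3 comparisons, and their adjusted p-values were 0.15, 0.2 and 0.15. Itgb3 and Tns2 are the called genes, so their shares in the same libraries add no separate support.

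The 3 other tested beta chains were scarce. Itgb8, which with alpha-v activates TGF-beta, was at 2.23 ± 0.86 CPM in DMSO and 2.09 ± 1.49 in OCA. Itgb2, the leukocyte chain, was at 1.51 ± 1.10 and 1.25 ± 0.68, and Itgb4, the laminin-binding chain of epithelia, at 1.55 ± 0.21 and 2.04 ± 0.58 (SD, n = 3). Their standard errors ran from 0.40 to 0.55 on the log2 scale, so changes well over 1.5-fold could go undetected in these 3. Itgb4 overlaps Galk1 on the other strand, which had 14102.5 counts over the 6 libraries against 146, and whether counting used strand was not given in the sources used here.

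None of the 13 alpha chains passed the threshold in either direction in the edgeR fit, in DESeq2 or in limma-voom. The fitted log2 value lay below 0 in 12 of them, against 6316 of 12687 over all genes tested. In 5 of them the unadjusted p was under 0.05, against 2405 of 12687 over all genes tested. The median was -0.13. The exception above 0 was Itga9. With each of the other scalings the count below 0 was also 12, with a correction for transcript length it was 10, and leaving out 1 library gave 9 to 12. The alpha chains share long transcripts, with a median of 5814 bases against 2933 over all genes tested. For the 17 focal adhesion genes the median length was 4422 bases. The part of transcript length in these signs was not tested.

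Itgav pairs with several beta chains and is the alpha chain of the TGF-beta-activating integrins. It stood at 654, 658 and 571 CPM in DMSO A, B and C and at 500.2, 604 and 537 in OCA A, B and C. OCA A and OCA C lay below the DMSO libraries, while OCA B lay above DMSO C. The log2 fold change was -0.20 (SE 0.08, 95% interval -0.37 to -0.02, adjusted p = 0.198). It passed the threshold in 1 of 18 alternatives, the fit with no filter on low counts (adjusted p = 0.0422).

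Itga5, which with beta1 forms the fibronectin receptor, stood at 206, 189.7 and 179 CPM in DMSO and at 170.5, 192 and 188 in OCA, overlapping throughout (log2 fold change -0.06, SE 0.07, adjusted p = 0.68). The other RGD-binding chains were near the floor of precision. Itga8, a chain known from mesenchymal cells, was at 6.72 ± 1.90 and 6.13 ± 2.60 CPM, and Itga2b, the platelet chain, at 3.19 ± 0.32 and 3.04 ± 0.51 (SD, n = 3). Platelet markers were detected at a like level, a sum of 6.34 to 9.76 CPM in DMSO and 7.67 to 9.01 in OCA with Pf4 and Gp1bb the highest, and Ppbp, Gp9 and Treml1 at 0. Whether the reads of Itga2b came from platelets was not tested.

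The collagen-binding chains held the largest fold changes below 0. Itga1, the abundant one, stood at 283, 283 and 235 CPM in DMSO and at 272, 255 and 254 in OCA, and the groups overlapped (log2 fold change -0.04, SE 0.08, adjusted p = 0.84). Itga2, the other widely expressed collagen receptor chain, stood at 8.57, 7.78 and 5.60 CPM in DMSO A, B and C and at 4.05, 5.06 and 2.83 in OCA A, B and C. Each OCA library lay below each DMSO library. The means were 7.31 ± 1.54 and 3.98 ± 1.12 CPM (SD, n = 3), and the log2 fold change was -0.87 (SE 0.26, 95% interval -1.43 to -0.32, adjusted p = 0.0623), just above the threshold.

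Itga2 was called lower in 4 of the 18 alternatives: with no filter on low counts (adjusted p = 0.0072), with robust estimation (0.0481), without OCA B (0.0168) and in 1 further fit. Over all 18 the adjusted p ran from 0.0072 to 0.382. Itga10 and Itga11, which bind collagen in cartilage and fibroblasts, were at 2.61 ± 0.72 and 1.55 ± 0.10 CPM in DMSO and at 1.32 ± 0.94 and 0.667 ± 0.20 in OCA (SD, n = 3). Their log2 fold changes were -0.98 (SE 0.46, adjusted p = 0.255) and -1.21 (SE 0.48, adjusted p = 0.171), and Itga11 did not overlap between the groups.

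Among the laminin-binding chains Itga3 was the most abundant. It stood at 42.4, 42.6 and 41.9 CPM in DMSO and at 35.1, 36.7 and 34.5 in OCA, so the groups were apart and each was tight. The log2 fold change was -0.25 (SE 0.09, adjusted p = 0.101), and it did not pass in any of the 18 alternatives (adjusted p from 0.0851 to 1.00). Itga6 stood at 7.97, 8.36 and 6.51 CPM in DMSO and at 6.91, 6.44 and 5.97 in OCA, with overlap (log2 fold change -0.24, SE 0.21). Itga7, the muscle laminin receptor chain, was at 0.852 ± 0.11 and 0.821 ± 0.51 CPM (SD, n = 3).

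Itga9 stood at 413, 413 and 371 CPM in DMSO and at 415, 466 and 424 in OCA. The groups did not overlap, but OCA A exceeded DMSO A and DMSO B by under 3 CPM, and the log2 fold change was 0.12 (SE 0.07, adjusted p = 0.382). Itga4, which binds fibronectin and Vcam1, stood at 4.95, 5.52 and 5.60 CPM in DMSO and at 3.38, 4.75 and 7.07 in OCA, with the OCA libraries on both sides of the DMSO ones (log2 fold change -0.08, SE 0.27).

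**Figure D3:**
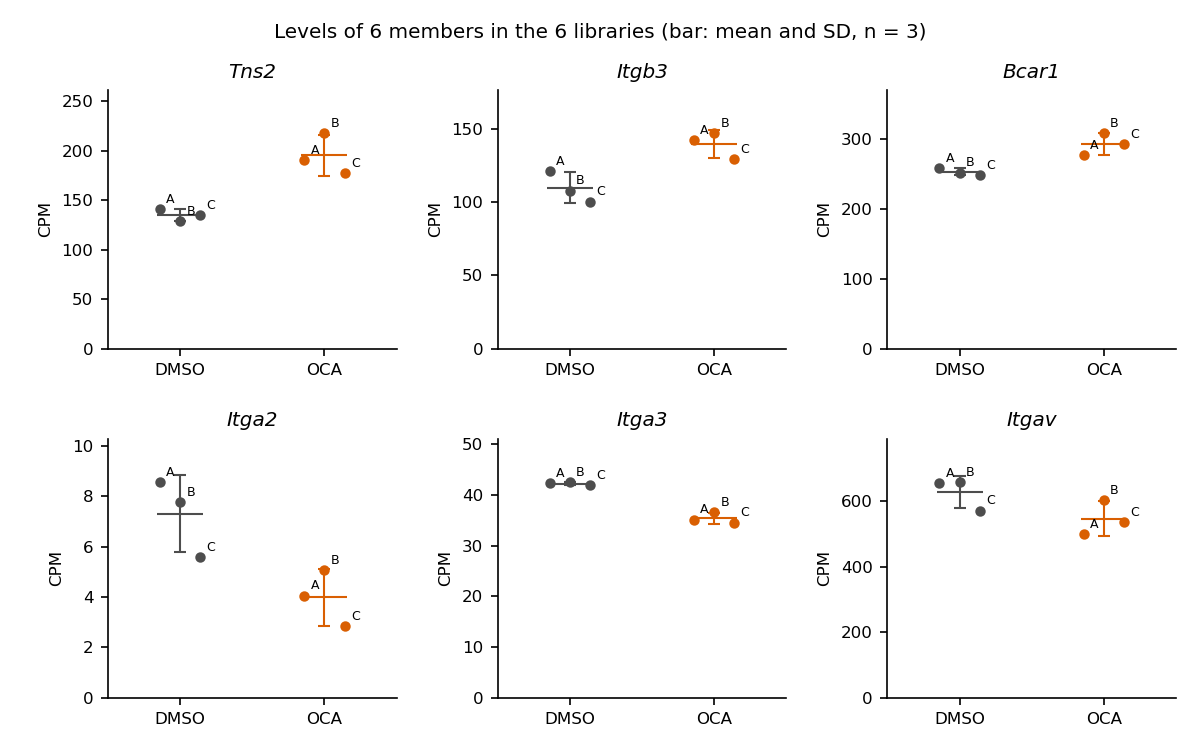
Level in CPM of 6 genes in each library, lettered A to C, with the mean and SD of each group (n = 3) and axes starting at 0. Tns2, Itgb3 and Bcar1 lie higher in every OCA library, Itga2 and Itga3 lower, and Itgav overlaps through OCA B. Of these, Tns2 and Itgb3 passed the threshold.

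The 17 focal adhesion genes showed 1 call, Tns2 (5.88%, against 2.18% called higher over all genes tested). Of the 17, 13 lay above 0 on the log2 scale, with a median of 0.07. Over all genes tested, 6371 of 12687 lay above 0. The count of focal adhesion genes above 0 was 11 with upper-quartile scaling, 16 with the length correction and 10 to 14 when 1 library was left out. Of the integrin activators, Fermt2, which encodes kindlin-2, stood at 527, 607 and 561 CPM in DMSO and at 586, 606 and 609 in OCA. Tln1, the main talin, stood at 1112, 1202 and 1014 CPM in DMSO and at 1008, 1143 and 1114 in OCA. Both overlapped between groups, with log2 fold changes of 0.09 (SE 0.07) and -0.03 (SE 0.09). Tln2, the second talin, was at 468 ± 30.7 and 474 ± 10.3 CPM (SD, n = 3).

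In the ILK complex, Ilk stood at 289.6, 341 and 310.5 CPM in DMSO and at 345, 344 and 354 in OCA, just apart, at 0.15 on the log2 scale (SE 0.07, adjusted p = 0.265). Ilk overlaps Taf10 and Rrp8 on the other strand, with 5121.5 and 7738 counts against its 27246.5. Parva, the actin-binding parvin, stood at 615, 712 and 617 CPM in DMSO and at 682, 704 and 714 in OCA (log2 fold change 0.11, SE 0.08). The PINCH genes were at 568 ± 24.7 and 552 ± 15.7 CPM for Lims1 and at 64.1 ± 1.43 and 59.2 ± 1.49 for Lims2 (SD, n = 3). Neither passed the threshold.

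All 5 genes of FAK-Src signalling lay above 0, against 6371 of 12687 over all genes tested, and none passed the threshold in the edgeR fit. Bcar1, which encodes the stretch-sensing scaffold p130Cas, stood at 259, 252 and 249 CPM in DMSO and at 277, 309 and 293 in OCA, without overlap. Its log2 fold change was 0.21 (SE 0.07, 95% interval 0.07 to 0.35, adjusted p = 0.0751), and DESeq2 called it higher (adjusted p = 0.0277). Tgfb1i1, the TGF-beta-induced paxillin relative Hic-5, stood at 205, 233 and 217 CPM in DMSO and at 216, 235 and 238 in OCA, with overlap (log2 fold change 0.07, SE 0.07). Ptk2, which encodes FAK, was at 246 ± 3.56 and 263 ± 8.77 CPM, Src at 139 ± 6.11 and 149 ± 14.6, and Pxn, which encodes paxillin, at 128 ± 2.36 and 134 ± 5.56 (SD, n = 3).

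Tns2 encodes tensin-2, an adaptor whose PTB domain binds integrin tails. It lies at chr15:102102934-102116401 on the plus strand of mm10 and was counted on transcript NM_153533. It stood at 141, 129 and 135 CPM in DMSO A, B and C and at 190.1, 218 and 177 in OCA A, B and C, so that the lowest OCA library exceeded the highest DMSO library. The means were 135 ± 5.88 and 195 ± 20.6 CPM (SD, n = 3), and the log2 fold change was 0.53 (SE 0.07, 95% interval 0.37 to 0.69, adjusted p = 0.000152). Tns2 was called in all 18 alternatives, with log2 fold changes from 0.44 to 0.59 and a largest adjusted p of 0.0231.

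Tns3 and Tns1 did not show a change of that size. Tns3 stood at 1044, 1189.8 and 1044 CPM in DMSO and at 1011, 1143 and 1132 in OCA (log2 fold change 0.00, SE 0.09, 95% interval -0.17 to 0.18). Tns1 was at 1451 ± 109.6 and 1332 ± 89.0 CPM (log2 fold change -0.12, SE 0.09, 95% interval -0.31 to 0.06). Within a library, Tns2 made up 9.55%, 7.89% and 9.31% of the summed CPM per kilobase of Tns1, Tns2 and Tns3 in DMSO. In OCA it made up 13.4%, 13.6% and 11.4%. The mean share was 8.92% ± 0.89 and 12.8% ± 1.22 (SD, n = 3), without overlap, at an exact two-sided permutation p = 0.1, the smallest this design allows (adjusted p = 0.15 over the 3 shares). This share comes from the same libraries as the call of Tns2 and adds no separate support. Tns2 was the least abundant of these 3 tensins in both groups.

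Vinculin, which binds talin and actin under force, and zyxin, which gathers at strained actin, showed no call. Vcl stood at 839, 948 and 814 CPM in DMSO and at 880.4, 874 and 864 in OCA, with the OCA libraries inside the DMSO range (log2 fold change 0.01, SE 0.08, adjusted p = 0.965). Zyx was at 274 ± 21.8 and 306 ± 14.8 CPM (SD, n = 3), with overlap, and differed by 0.16 on the log2 scale (SE 0.07, adjusted p = 0.233).

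**Figure D4:**
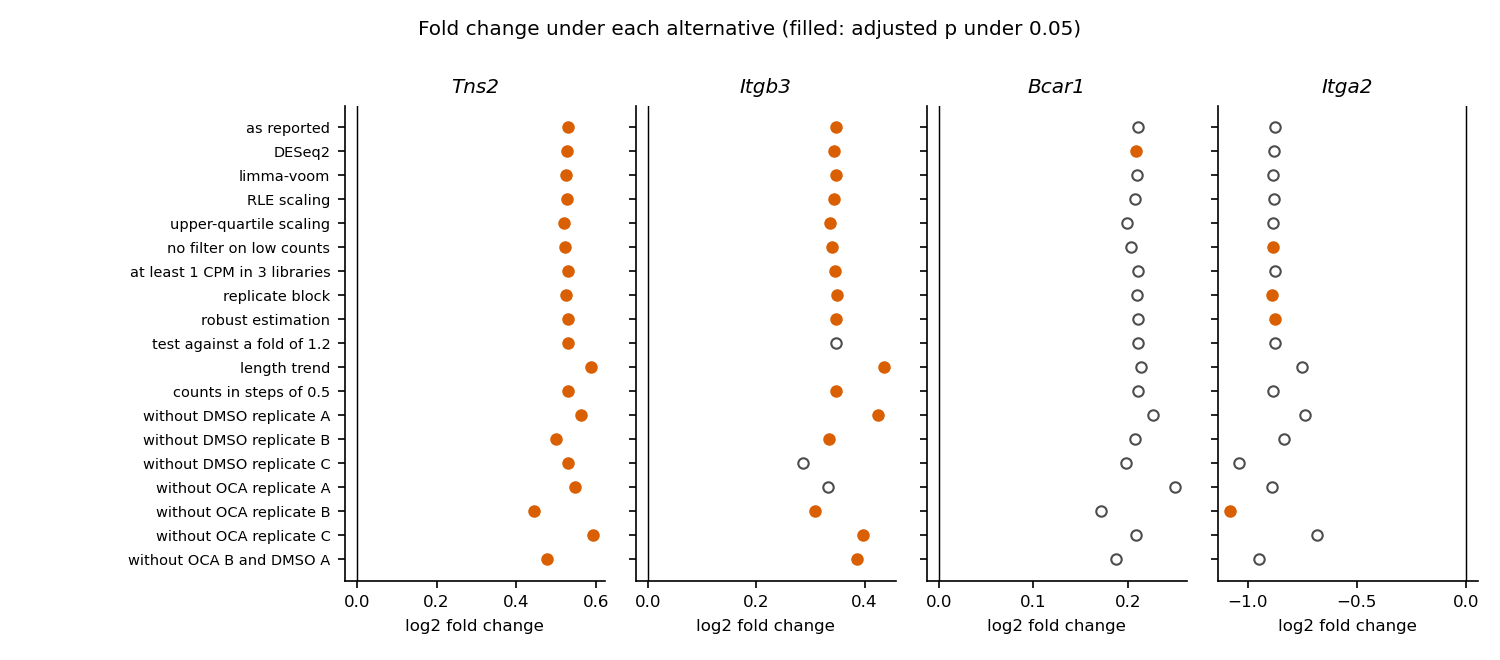
Log2 fold change of Tns2, Itgb3, Bcar1 and Itga2 as reported and under each of the 18 alternatives, with filled points at an adjusted p under 0.05. Tns2 is filled throughout, Itgb3 lacks 3 fills, Bcar1 is filled with DESeq2, and Itga2 is filled 4 times and lies below 0 in every row.

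Start regions from RefSeq (GRCm38.p6, 250 bases before to 50 after the start) matched 27 of the 38 genes. Itgb3 had no match, so of the called genes Tns2 alone has a window. The region of Tns2 is shown beside that of Tns3, the tensin with a log2 fold change of 0.00, and that of Vcl, a classical target of serum response factor (SRF). They lie at chr15:102102684-102102983 (plus strand), chr11:8664486-8664785 (minus strand) and chr14:20929148-20929447 (plus strand). Capitals mark every match, on either strand, to the motifs searched: AGGTCA, the half-site of many nuclear receptors; its inverted repeat with 1 base between; the CArG box bound by SRF; GGAATG, bound by TEAD factors; TGANTCA, bound by AP-1; and the GC box GGGCGG.
Tns2: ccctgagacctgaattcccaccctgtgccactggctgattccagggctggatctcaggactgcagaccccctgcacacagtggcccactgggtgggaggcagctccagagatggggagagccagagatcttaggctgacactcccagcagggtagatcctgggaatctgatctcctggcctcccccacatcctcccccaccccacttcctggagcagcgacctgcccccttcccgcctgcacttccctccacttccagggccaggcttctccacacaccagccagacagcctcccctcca
Tns3: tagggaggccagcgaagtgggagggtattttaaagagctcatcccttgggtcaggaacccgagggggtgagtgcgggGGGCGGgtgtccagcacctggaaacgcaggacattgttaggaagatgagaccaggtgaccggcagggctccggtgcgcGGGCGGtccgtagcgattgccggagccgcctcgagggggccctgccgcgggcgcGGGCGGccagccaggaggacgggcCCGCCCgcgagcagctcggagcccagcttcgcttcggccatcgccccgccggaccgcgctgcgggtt
Vcl: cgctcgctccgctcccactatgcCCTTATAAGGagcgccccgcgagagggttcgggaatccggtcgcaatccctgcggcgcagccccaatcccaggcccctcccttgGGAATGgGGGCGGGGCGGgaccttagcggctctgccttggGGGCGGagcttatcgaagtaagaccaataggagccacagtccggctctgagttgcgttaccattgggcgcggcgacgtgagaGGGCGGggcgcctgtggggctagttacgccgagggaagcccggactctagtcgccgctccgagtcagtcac
The window of Tns2 held no match. That of Tns3 held 4 GC boxes. That of Vcl held a CArG box at positions -227 to -218 from the start, 1 GGAATG and 4 GC boxes, of which 2 overlap.

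Among the 27 matched genes, 1 window held AGGTCA (Zyx), against 16.3% of the 32851 windows in the table, and 0 held the inverted repeat, against 0.00913%. The CArG box was in 3 windows (Vcl, Fermt2 and Itgb6), against 1.63% of all windows. GGAATG was in 3 (14.7% of all), TGANTCA in 2 (7.81%) and the GC box in 15 (35.7%). For Itga9 the table's start lay 104983 bases from the start in the counted transcript, so its window belongs to another start. For Tns1 these starts lay 101 bases apart. These matches describe the letters alone.

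Other genes of the adhesion pathway, here and in the next paragraphs, were taken from lists. The lists were chosen with earlier results of these data known, so their shares of calls are not read as enrichment. Of 55 tested focal adhesion adaptors and kinases outside the rule, 5 rose and 3 fell (9.09% and 5.45%, against 2.18% and 3.03% of all genes), with a median log2 fold change of 0.02. Enah, which encodes Mena, an actin-elongation factor that binds zyxin and vinculin, rose from 34.8, 28.7 and 31.0 CPM in DMSO to 68.5, 62.3 and 65.5 in OCA (log2 fold change 1.05, SE 0.09). Its adjusted p was at most 2.03e-05 in all 18 alternatives. Tes, the zyxin- and Mena-binding LIM protein testin, stood at 99.6, 103 and 99.9 CPM in DMSO and at 167, 137 and 166 in OCA (log2 fold change 0.63, SE 0.08). Arhgef7, the paxillin-complex exchange factor beta-PIX, stood at 115, 99.9 and 110.9 CPM in DMSO and at 166, 154 and 147 in OCA (log2 fold change 0.52, SE 0.07). These 3 genes, like Tns2, were called in all 18 alternatives and did not overlap between groups.

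Elmo1, a partner of the Rac activator Dock1, rose from 9.30 ± 0.50 to 15.2 ± 1.21 CPM (SD, n = 3), a difference of 0.71 on the log2 scale (SE 0.16, adjusted p = 0.0109). It missed the threshold without OCA A (adjusted p = 0.0546), without DMSO C (0.0503) and against a fold change of 1.2 (0.104). The fifth gene that rose was Sorbs3, which encodes the vinculin-binding vinexin, with an adjusted p of 0.0487 that was lost in 10 of 18 alternatives, among them leaving out any library but OCA B (0.0695 to 0.226). The 3 that fell were Dock1, Kank1, a talin-binding protein, and Lpp, a zyxin relative, with log2 fold changes of -0.32, -0.27 and -0.37. The libraries of Lpp overlapped between groups. With the length trend all 3 calls were lost (adjusted p = 0.0807, 0.0917 and 0.641), and Lpp was then at -0.10. Lpp was also lost with DESeq2 (0.203) and robust estimation (0.0587). All 3 missed the threshold when DMSO B, OCA A, DMSO A or OCA C was left out (adjusted p from 0.0532 to 0.279), and Kank1 also without DMSO C (0.0723). Sorbs3, Dock1, Kank1 and Lpp are named to complete these counts. Over the alternatives the list held 3 to 8 higher and 0 to 5 lower genes. When 1 library was left out it held 3 to 7 and 0 to 5.

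Integrin ligands showed 10 genes lower and 1 higher among 36 tested (27.8% and 2.78%, against 3.03% and 2.18% of all genes). Of the 36, 34 lay below 0, with a median of -0.24, against 6316 of 12687 genes and a median of 0.00. The number called lower changed with the libraries used. It was 1 without OCA A, 2 without OCA C or DMSO B, 3 without DMSO A and 6 without DMSO C. It was 20 without OCA B, and 18 without OCA B and DMSO A together. Lower calls over all genes moved too, from 384 to 104 without OCA A or DMSO A, 126 without OCA C and 202 without DMSO B. They were 230 without DMSO C, 758 without OCA B, and 605 without OCA B and DMSO A. DESeq2 called 5 ligand genes lower. The count below 0 was steadier, at 32 to 34 of 36 or 37 when 1 library was left out. The portal fibroblast sum given above, mostly Ntn1 and Fbln2, also reached lower values in OCA, and its part was not tested.

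Angptl4, an inhibitor of lipoprotein lipase that is also found on integrins, fell from 69.4, 69.1 and 74.4 CPM in DMSO to 42.9, 54.7 and 47.4 in OCA. Its log2 fold change was -0.55 (SE 0.09, adjusted p = 0.000563), and it was the 1 ligand gene called in all 18 alternatives among the 4 with the smallest p. Icam1, a ligand of leukocyte integrins, stood at 86.4, 85.3 and 84 CPM in DMSO and at 60.4, 70.2 and 70.1 in OCA, a difference of -0.35 on the log2 scale (SE 0.08). It missed the threshold without OCA A (adjusted p = 0.0634) and against a fold change of 1.2. Mfge8, an RGD protein that binds alpha-v integrins, stood at 189, 222 and 203 CPM in DMSO and at 125, 187 and 131 in OCA, with OCA B close to DMSO A (log2 fold change -0.47, SE 0.11). Its call was lost in 7 alternatives, among them leaving out OCA A, OCA C, DMSO B or DMSO C (adjusted p from 0.0562 to 0.111). Fbln5, another RGD protein, stood at 72.5, 70.6 and 63.4 CPM in DMSO and at 47.3, 58.7 and 33.3 in OCA (log2 fold change -0.57, SE 0.13). Its call was lost in 6 alternatives, among them leaving out DMSO B, OCA A, DMSO A or OCA C (adjusted p from 0.0514 to 0.0897).

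**Figure D5:**
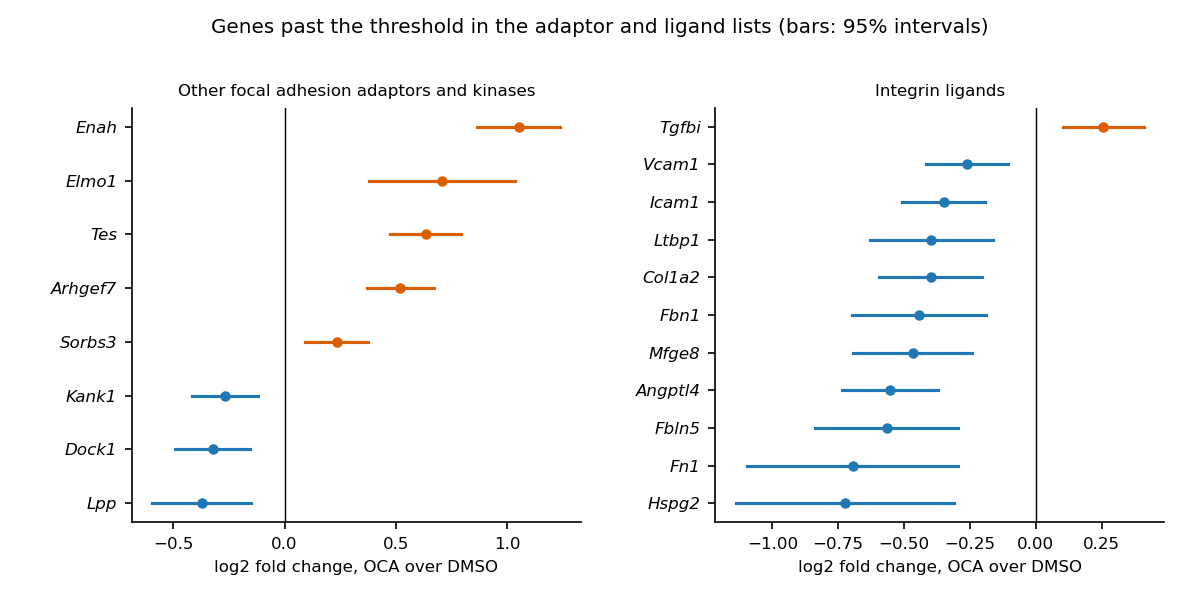
Log2 fold change with 95% interval for the 8 adaptor genes and 11 ligand genes past the threshold, orange for higher and blue for lower. Enah, at 1.05, is the farthest from 0, and 10 of the 11 ligand genes lie below 0.

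Regulators of integrin activation and trafficking showed 0 higher and 0 lower among 27 tested, in edgeR, DESeq2 and limma-voom, with 5 and 1 at an unadjusted p under 0.05. The highest by CPM, not corrected for transcript length, were Rapgef1, an activator of the GTPase Rap1, at 504 ± 14.9 and 559 ± 30.7 CPM, and the tetraspanin Cd81, at 391 ± 41.6 and 450.3 ± 10.1 (SD, n = 3). Target genes of SRF and its cofactor MRTF, which respond to actin assembly, showed 0 higher and 1 lower among 24. The lower gene was Lmod1, an actin nucleator of smooth muscle, at 61.2, 65.9 and 63.2 CPM in DMSO and 57.0, 48.8 and 48.5 in OCA (-0.30 on the log2 scale, SE 0.08, adjusted p = 0.0402, lost in 7 of 18 alternatives, among them leaving out any library but OCA A, with 0.0711 to 0.169). DESeq2 called 0 of the 24 in either direction, limma-voom called 1 lower, and 0 and 3 had an unadjusted p under 0.05. Over all genes tested, 2405 of 12687 had an unadjusted p under 0.05, and 2.18% were called higher and 3.03% lower. Call counts of 0 or 1 in lists of this size are near those shares and are not read as a lack of response.

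Target genes of YAP and TAZ, the transcription cofactors that respond to stiffness and adhesion, showed 0 calls among 19 in edgeR, DESeq2 and limma-voom. With 2.18% of all genes called higher and 3.03% lower, 0 of 19 is not read as a lack of response. At an unadjusted p under 0.05, 0 lay above and 2 below 0, against 2405 of 12687 over all genes in both directions. Axl, a receptor kinase, was at 1060 ± 112.6 CPM in DMSO and 1131 ± 14 in OCA, and Ctgf, a secreted matrix protein, at 693 ± 70.8 and 649 ± 29.5 (SD, n = 3). Both overlapped between groups, with 95% intervals of -0.09 to 0.27 and -0.27 to 0.08 on the log2 scale.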

How the data were processed

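Polyadenylated RNA of 3 OCA and 3 DMSO libraries (NEBNext Ultra kit) was measured, per the labels' protocols. The submitters' processing notes name STAR, HOMER and mm10. Their versions, the strand setting and the handling of multiply mapped reads were not given in the sources used here. In 1 table the authors deposited exon counts for 24940 genes, each on 1 RefSeq transcript. The deposited values run in steps of 0.5 (26.5% to 29.8% per column not whole), of unknown origin, and these estimated counts were rounded to whole numbers. Columns were matched to samples by title, and 0 columns were left out.

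edgeR 4.0.16 in R 4.3.3 was run over the whole table (filterByExpr, TMM, quasi-likelihood test without robust estimation, two-sided, Benjamini-Hochberg over 12687 genes, threshold 0.05). The standard error is the size of the log2 fold change over the square root of F. CPM use TMM-scaled totals. Shares within a library were taken of CPM per kilobase and compared by exact permutation. The fit was tested on simulated data. The common biological coefficient of variation was 7.98%, and within groups the libraries varied beyond counting noise (chi-square per degree of freedom 4.40 to 8.02).

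The 18 alternatives were DESeq2 1.42.0, limma-voom (limma 3.58.1), RLE and upper-quartile scaling, no filter, at least 1 CPM in 3 libraries, robust estimation, a replicate block, a test against a fold of 1.2, a length trend (loess on transcript length, span 0.5), counts in steps of 0.5, leaving out each of the 6 libraries, and leaving out OCA B and DMSO A together. The genes, lists and tests were chosen with earlier results of these data known. Named in full are called members and, in each role, the 2 most abundant per kilobase. Each pathway list gives up to 4 called genes by smallest p, or up to 2 by highest CPM where none was called, and each marker list up to 2.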

Additional observations from a re-analysis of the deposited data

How the results depend on the processing

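Of the 36 tested members, Tns2 kept its call under all 18 alternatives and Itgb3 under 15, and 31 were never called. Members higher numbered 1 against a fold of 1.2 and 1 to 2 when 1 library was left out, against 2 reported. Members lower numbered 2 with no filter, 1 with the replicate block, 1 with robust estimation and 0 to 1 when 1 library was left out, against 0. Correlations of same-letter deviations were 0.00051, -0.043 and 0.054, and each was below 0.1. Those of different letters ran from -0.080 to 0.080. With 3 libraries per group this check cannot settle whether the letters pair the samples. The block gave 306 higher and 508 lower genes over the whole table, against 276 and 384, and called Itga2 (adjusted p = 0.0314) as the 1 member call it changed.

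Over the whole table, leaving out 1 library gave 161 to 363 higher and 104 to 758 lower genes, no filter 331 and 703, a length trend 349 and 227, a fold of 1.2 101 and 16, and leaving out OCA B and DMSO A 339 and 605. With robust estimation the lower ligand genes numbered 3, with the length trend 6, with no filter 18 and against a fold of 1.2 1, against 10. The length trend moved the median of the members to 0.09, with 22 above 0.

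Signs changed for 13 uncalled members, with reported sizes up to 0.30, and the cause was not tested. With upper-quartile scaling Vcl was at -0.0013 and Tns3 at -0.0074, and with no filter Tns3 was at -0.0027. With the length trend Tns1 was at 0.056, Itga4 at 0.098, Itga1 at 0.060, Lims1 at 0.0065 and Tln1 at 0.13. Without OCA B and DMSO A, Vcl was at -0.014, Tns3 at -0.059, Itgb2 at 0.18, Itga1 at 0.026 and Itga2b at 0.011. Leaving out 1 library gave -0.034 to 0.079 for Vcl, -0.028 to 0.069 for Tns3, -0.40 to 0.14 for Itga4, -0.80 to 0.29 for Itgb8, -0.63 to 0.51 for Itgb2, -0.12 to 0.0095 for Itga1, -0.088 to 0.034 for Tln1, -0.034 to 0.048 for Tln2, -0.64 to 0.30 for Itga7, -0.52 to 0.088 for Itga8 and -0.20 to 0.043 for Itga2b. Depth limits the 11 members under 20 CPM.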

Other observations

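Some relatives of the described genes that the rule leaves out were also measured. Parvb, the second parvin, was at 46.5, 45 and 43.9 CPM in DMSO and 39.3, 40.2 and 40.4 in OCA, without overlap (log2 fold change -0.18, SE 0.08, adjusted p = 0.259). Fermt3, the kindlin of blood cells, was at 8.06 ± 1.88 and 6.27 ± 1.10 CPM, and Ptk2b, the FAK relative Pyk2, at 1.25 ± 0.34 and 0.867 ± 0.30 (SD, n = 3). Of 7 further integrin genes of leukocytes and other cells, 0 passed the filter on low counts, and Itgax, Itgad and Itgb2l had 0 counts in all 6 libraries. These genes were chosen after their values were seen.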
